A study of Mus musculus with 12 samples.

Results

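In all, 10 genes of the unfolded protein response of the endoplasmic reticulum were followed across resting and stimulated mouse macrophages: Atf6, Xbp1, Ddit3, Trib3, Hspa5, Hsp90b1, Dnajb9, Sdf2l1, Herpud1 and Edem1. They were chosen by symbol, and all 10 were found among the 24421 gene symbols of the count tables and passed the filter on low counts. The libraries were bulk polyA RNA-seq of bone marrow-derived macrophages, primary macrophages grown from marrow, taken from male C57BL/6J mice aged 8 weeks. The siRNA was a control (siControl) in some cultures and directed at Ehd1 (siEhd1) in others, and the macrophages were resting (M0) or had been given lipopolysaccharide (M1). That gave 4 groups of 3 libraries, and every group, controls included, had received an siRNA. Lipopolysaccharide (LPS) is a bacterial cell wall component that activates Toll-like receptor signalling, and EHD1 is a protein of endocytic recycling. The series asked what EHD1 does to inflammatory gene expression in macrophages.

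The endoplasmic reticulum (ER) folds proteins that are secreted or inserted into membranes. When unfolded proteins gather there, the sensors IRE1, PERK and ATF6 start the unfolded protein response. IRE1 splices the Xbp1 mRNA so that it codes for an active transcription factor, PERK phosphorylates eIF2α and so favours translation of ATF4, and ATF6 is cut in the Golgi to release a transcription factor. ATF6 and spliced XBP1 raise chaperones and degradation factors, while ATF4 raises amino acid genes, Ddit3 (which encodes CHOP) and Trib3. Toll-like receptor signalling in macrophages is known to engage the IRE1 and XBP1 branch. Gene counts of the kind used here do not separate spliced from unspliced Xbp1, and they do not measure cleavage of ATF6 or phosphorylation.

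Library totals ranged from 18572725 to 22545272 counts. Ehd1 stood at 59.2% of control in resting siEhd1 cells and at 48.7% after LPS. Its level was 53.2 ± 1.18 and 31.5 ± 2.35 CPM (counts corrected for library size by TMM) in resting cells and 619.7 ± 64.5 and 301.8 ± 18.2 CPM after LPS (mean ± SD, n = 3, siControl then siEhd1). All 8 macrophage markers searched reached 5 CPM or more in each group. Their summed level was 23635.0 to 24297.9 CPM in resting siControl, 19637.3 to 20986.6 in resting siEhd1, 32174.7 to 38653.9 in LPS siControl and 35192.2 to 36901.4 in LPS siEhd1 libraries. Plasma cells carry a strong unfolded protein response, and of 7 plasma and B cell markers 6 averaged under 1 CPM in every group. Jchain averaged at most 0.0648 CPM, Mzb1 was at 0 in 3 of the 4 groups, and Sdc1, which is not restricted to plasma cells, rose from 190.7 to 407.7 CPM with LPS in siControl cells. Summed T and NK cell markers reached at most 0.0484 CPM, dendritic cell markers 1.15, neutrophil markers 4.21 and stromal markers 19.2. The stromal sum was 2.06 to 6.31 CPM in resting siControl and 1.15 to 5.13 in resting siEhd1 libraries. After LPS it was 4.93 to 19.2 with siControl and 9.43 to 16.1 with siEhd1. Neutrophil sums were at most 1.14 CPM in resting siControl and 0.769 in resting siEhd1 libraries, and at least 3.16 and 3.68 after LPS. In bulk libraries fewer cells of a type and less RNA per cell cannot be told apart. The labels do not say whether the replicates came from separate animals or cultures, so each p-value reflects variation among the sequenced libraries alone, and this variation may be technical. Resting and LPS libraries were deposited in separate tables with no batch given, so handling that differed between tables and LPS treatment cannot be told apart.

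Measured per kilobase of exon, the chaperones Hspa5 and Hsp90b1 were the most abundant of the 10 genes in all 4 groups and Trib3 the least. In resting siControl cells the mean level was 152.5 CPM per kb for Hspa5, 137.8 for Hsp90b1, 50.8 for Edem1 and 46.6 for Sdf2l1. Below these came Xbp1 at 31.7, Ddit3 at 22.3, Atf6 at 20.6, Dnajb9 at 11.5, Herpud1 at 11.4 and Trib3 at 1.4 CPM per kb. The libraries of Dnajb9 and Herpud1 overlapped, while those of all other neighbours in this order did not. In LPS siControl cells Sdf2l1, at 100.7 CPM per kb, and Xbp1, at 60.7, stood above Edem1 at 50.9. Atf6, at 11.8 CPM per kb, then stood below Dnajb9 and Herpud1, its libraries overlapping those of Herpud1.

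**Figure D1:**
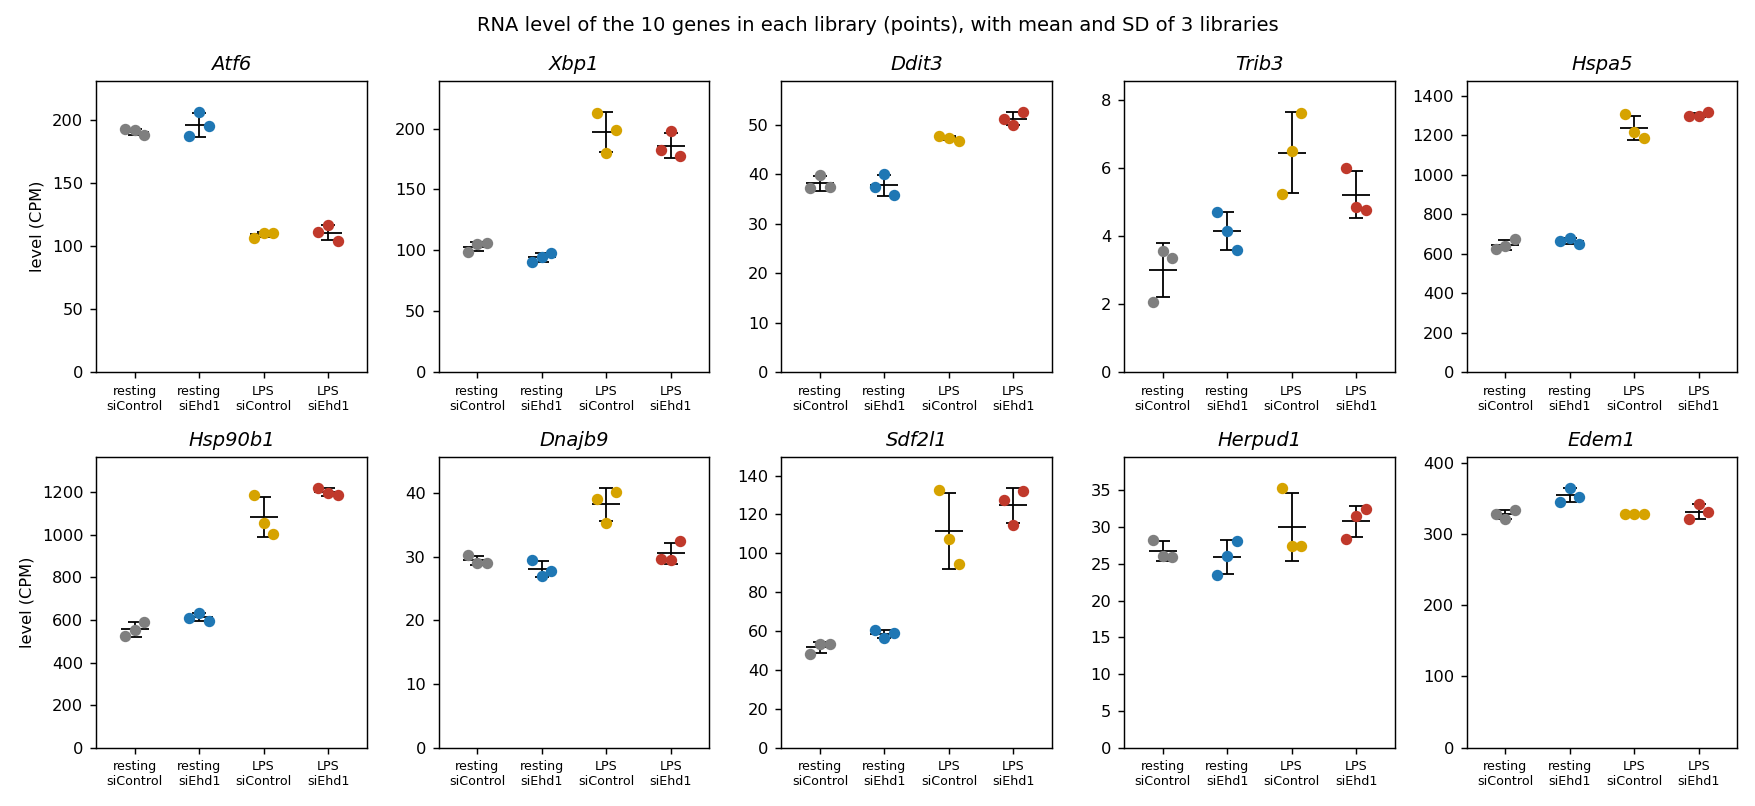
RNA level (y axis, CPM, linear from 0) of each of the 10 genes in the 12 libraries. Points are libraries, the long line is the group mean and the bar its SD (n = 3). Hspa5, Hsp90b1, Sdf2l1, Xbp1 and Ddit3 stood higher in every LPS library than in every resting one, and Atf6 lower. Trib3 did so by a narrow margin (lowest LPS library 4.76, highest resting library 4.7 CPM). Dnajb9 was lower in LPS siEhd1 than in LPS siControl libraries.

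Short sequence elements through which ATF6, XBP1 and ATF4 act are known, and they were searched on both strands of promoters running from 250 bases before to 50 bases after the RefSeq start (RefSeq on GRCm38.p6). A promoter was matched for 9 of the 10 genes, and Atf6 was the gene with none. The ER stress element (ERSE) was searched as CCAAT, 9 free bases and CCACG, its second form (ERSE-II) as ATTGG, 1 free base and CCACG, the core of the XBP1 element (UPRE core) as TGACGTG, and the ATF4 composite element (CARE) as TGATG, 1 free base and AA. All exact ERSE, ERSE-II and CARE matches in these 9 promoters are shown, so that the letters in genes that rose with LPS (Hspa5, Hsp90b1, Trib3) can be read beside those in Herpud1, which did not pass the test in siControl cells, and capitals mark the fixed bases.
Hspa5 ERSE: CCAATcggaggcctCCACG
Hsp90b1 ERSE, strand of the gene: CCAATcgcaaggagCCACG
Hsp90b1 ERSE, opposite strand: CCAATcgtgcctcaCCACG
Herpud1 ERSE-II: ATTGGgCCACG
Herpud1 CARE, opposite strand: TGATGcAA
Trib3 CARE, opposite strand: TGATGtAA

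The Hspa5 element lies at chr2:34772025-34772043 on the plus strand, 65 to 47 bases before the RefSeq start. It falls inside the gene position given below, which begins at 34771970. The Hsp90b1 elements lie at chr10:86705638-86705656 on the minus strand and chr10:86705533-86705551 on the plus strand. Those of Herpud1 lie at chr8:94386377-94386387 (ERSE-II) and chr8:94386317-94386324 (CARE), and that of Trib3 at chr2:152344039-152344046. Hspa5 also held the UPRE core, 157 to 151 bases before its RefSeq start. Of 32851 promoters of the same length, 0.119% held ERSE (39 promoters), 0.0365% ERSE-II, 2.01% the UPRE core and 3.97% CARE. No letters of any of the 4 elements were found in this window for Xbp1, Ddit3, Dnajb9, Sdf2l1 or Edem1. For Dnajb9 the window, chr12:44210019-44210318 on the minus strand, lies wholly inside the gene position given below (44205559 to 44210326). Sequence before that annotated start was therefore not searched for Dnajb9. A match is a description of these letters and not evidence of binding.

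**Figure D2:**
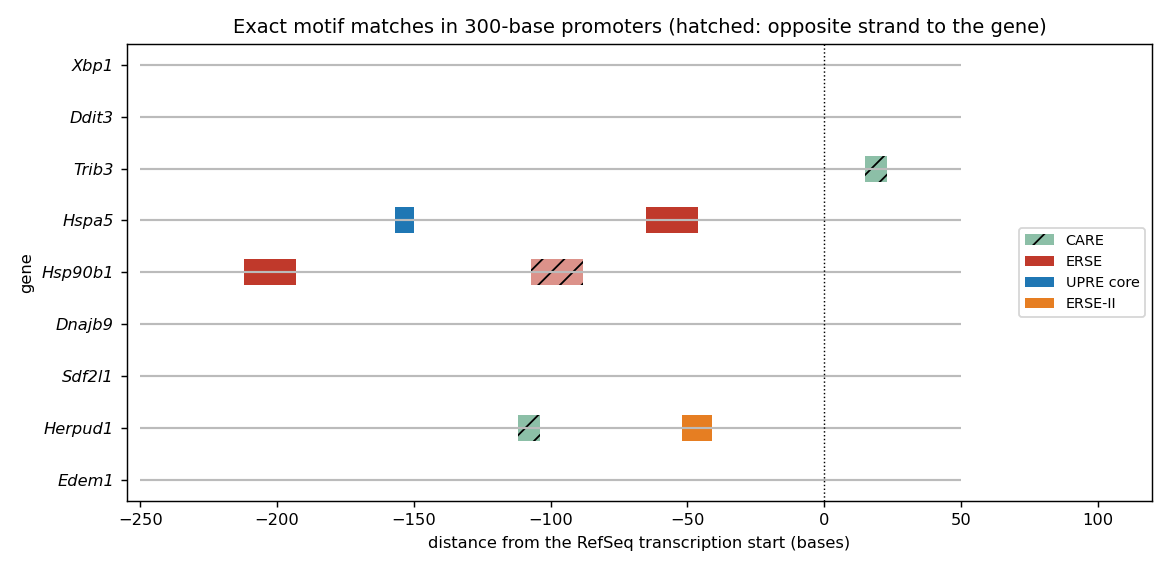
Position of exact element matches (x axis, bases from the RefSeq transcription start) in the promoters of the 9 genes matched (y axis). Grey lines are the searched windows, coloured boxes the matches, and hatching marks the strand opposite to the gene. Matches fall in Trib3, Hspa5, Hsp90b1 and Herpud1.

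LPS treatment of siControl cells raised 7 of the 10 genes and lowered 1, Atf6. Xbp1, Hspa5, Hsp90b1, Sdf2l1 and Trib3 rose 1.91- to 2.16-fold, Ddit3 and Dnajb9 rose less, and Herpud1 and Edem1 did not pass the test. LPS moved most of the transcriptome: 68.8% of 12164 tested genes were called in either direction at an edgeR adjusted p under 0.05, 34.8% higher and 34.0% lower. The share of the 10 genes called therefore lay near the background, and the share called higher above it. The median log2 fold change of the 10 was 0.66, against -0.01 over all tested genes. Between resting and LPS siControl libraries 8 of the 10 genes did not overlap, against 70.8% of tested genes, with 7 above (35.5% of tested genes) and 1 below (35.3%).

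Atf6, on chromosome 1 from 170704674 to 170867771 (minus strand, GRCm38), encodes the membrane-bound sensor and factor. It read 192.4, 191.5 and 187.6 CPM in resting siControl libraries and 106.6, 110.4 and 110.1 after LPS. All LPS libraries lay well below all resting ones. Atf6 fell by 0.80 on the log2 scale (SE 0.053, 95% interval -0.91 to -0.69, edgeR adjusted p = 2.2e-11), to 57.2% of resting.

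Xbp1, on chromosome 11 from 5520659 to 5525893, encodes the factor activated by IRE1. It read 98.6, 104.8 and 105.8 CPM in resting siControl libraries and 212.6, 180.1 and 198.4 after LPS, without overlap. The log2 fold change was 0.94 (SE 0.061, edgeR adjusted p = 2.3e-11), so that the factors Xbp1 and Atf6 moved in opposite directions.

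Hspa5 encodes BiP, the main Hsp70 chaperone of the ER, which holds the sensors inactive. It read 621.9, 640.3 and 672.5 CPM in resting siControl libraries and 1305.5, 1216.3 and 1188.1 after LPS. Every LPS library was above every resting one, a 1.92-fold rise (95% interval 1.77 to 2.07, edgeR adjusted p = 2.7e-12). Hsp90b1 encodes GRP94, the Hsp90 chaperone of the ER. Its resting siControl libraries read 523.2, 552.3 and 591.7 CPM and its LPS libraries 1189.2, 1055.0 and 1005.6, a 1.95-fold rise (1.78 to 2.14, edgeR adjusted p = 2.6e-11). Hspa5 lies on chromosome 2 from 34771970 to 34777547 and Hsp90b1 on chromosome 10 from 86690209 to 86705509. Exons of Hsp90b1 share 415 bases with 1810014B01Rik on the other strand, and the strand setting of the counting is not given in the sources used here, so reads from that stretch cannot be assigned to either gene.

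Sdf2l1, on chromosome 16 from 17130138 to 17132383, encodes an ER protein found in complexes of BiP and its cochaperones. It read 48.2, 53.6 and 53.1 CPM in resting siControl libraries and 132.8, 107.5 and 94.4 after LPS. The groups did not overlap, though the LPS libraries were spread widely, and the fold was 2.16 (1.85 to 2.52, edgeR adjusted p = 3.7e-07). Dnajb9 encodes ERdj4, an Hsp40 cochaperone of BiP, and lies on chromosome 12 from 44205559 to 44210326. It rose from 30.2, 29.0 and 29.0 to 39.0, 35.3 and 40.2 CPM, a 1.3-fold change (1.18 to 1.43, edgeR adjusted p = 3e-05). The rise of this cochaperone was thus smaller than that of the chaperone it serves, without a test of the difference between the genes.

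Herpud1 and Edem1 act in ER-associated degradation, Herpud1 as a membrane part of the ubiquitin ligase complex and Edem1 as a lectin that directs misfolded glycoproteins to it. Herpud1 read 28.2, 26.0 and 25.9 CPM in resting siControl libraries and 35.3, 27.4 and 27.4 after LPS, with overlapping groups (log2 fold change 0.17, 95% interval -0.03 to 0.37, edgeR adjusted p = 0.12). Edem1 read 327.8, 320.6 and 334.2 CPM in resting siControl libraries and 327.8, 328.4 and 328.4 after LPS, again overlapping. Its interval, -0.1 to 0.1 on the log2 scale, leaves room only for a small change on this scaling. Herpud1 lies on chromosome 8 from 94386438 to 94395377 and Edem1 on chromosome 6 from 108828641 to 108859356.

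Ddit3 encodes CHOP, the transcription factor of the PERK branch that is known for its part in cell death. It lies on chromosome 10 from 127290774 to 127296288 and shares 68 exon bases with Mars on the other strand. Resting siControl libraries read 37.2, 39.9 and 37.4 CPM and LPS libraries 47.7, 47.3 and 46.8, without overlap. The rise was 1.24-fold (1.14 to 1.34, edgeR adjusted p = 7.2e-05). Trib3 encodes a pseudokinase induced by ATF4 and CHOP and lies on chromosome 2 from 152337422 to 152344032. It was the lowest of the 10 genes, at 2.07, 3.55 and 3.34 CPM in resting siControl and 5.23, 6.49 and 7.61 after LPS. These did not overlap and gave a log2 fold change of 1.11 with a wide error (SE 0.18, edgeR adjusted p = 2.4e-05).

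The scaling matters for these small changes. With libraries scaled to total counts in place of TMM factors, the median tested gene moved to -0.207 on the log2 scale in siControl cells and -0.24 in siEhd1 cells. Calls over all genes then went from 4237 higher and 4132 lower to 2826 and 5860 in siControl cells, and from 4005 and 4139 to 2499 and 6244 in siEhd1 cells. Under that scaling Ddit3 was 0.11 higher with LPS in siControl cells (edgeR adjusted p = 0.095) and Edem1 was lower by -0.19 (edgeR adjusted p = 0.0005). The rises of Hspa5, Hsp90b1, Sdf2l1, Xbp1, Trib3 and Dnajb9 and the fall of Atf6 in siControl cells kept their direction and their call under every alternative tried.

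In siEhd1 cells LPS raised 6 of the 10 genes and lowered Atf6, where 67.0% of tested genes were called (32.9% higher, 34.0% lower). The groups did not overlap for 10 of 10 genes, against 71.2% of tested genes, with 8 above (35.2%) and 2 below (36.0%), and the median log2 fold change was 0.39 against -0.02. The log2 fold change was -0.83 for Atf6, 0.98 for Xbp1, 0.98 for Hspa5, 0.97 for Hsp90b1, 1.09 for Sdf2l1 and 0.44 for Ddit3 (edgeR adjusted p at most 7.7e-07 among these 6). Herpud1 rose from 23.4, 26.1 and 28.1 to 28.4, 31.5 and 32.4 CPM (0.25, edgeR adjusted p = 0.025). That call of Herpud1 was lost with total counts (0.03, adjusted p = 0.81) and without resting siEhd1 replicate 1 (0.12), LPS siEhd1 replicate 2 (0.074) or LPS siEhd1 replicate 3 (0.088), all edgeR adjusted p. Trib3 and Dnajb9 did not pass the test in siEhd1 cells, with log2 fold changes of 0.33 (95% interval -0.05 to 0.71) and 0.12 (-0.02 to 0.26). Edem1 read 345.3, 364.7 and 352.4 CPM in resting and 321.0, 342.2 and 330.6 CPM in LPS siEhd1 libraries (-0.1, edgeR adjusted p = 0.08), and with total counts it was called lower (-0.32, edgeR adjusted p = 1.8e-06).

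**Figure D3:**
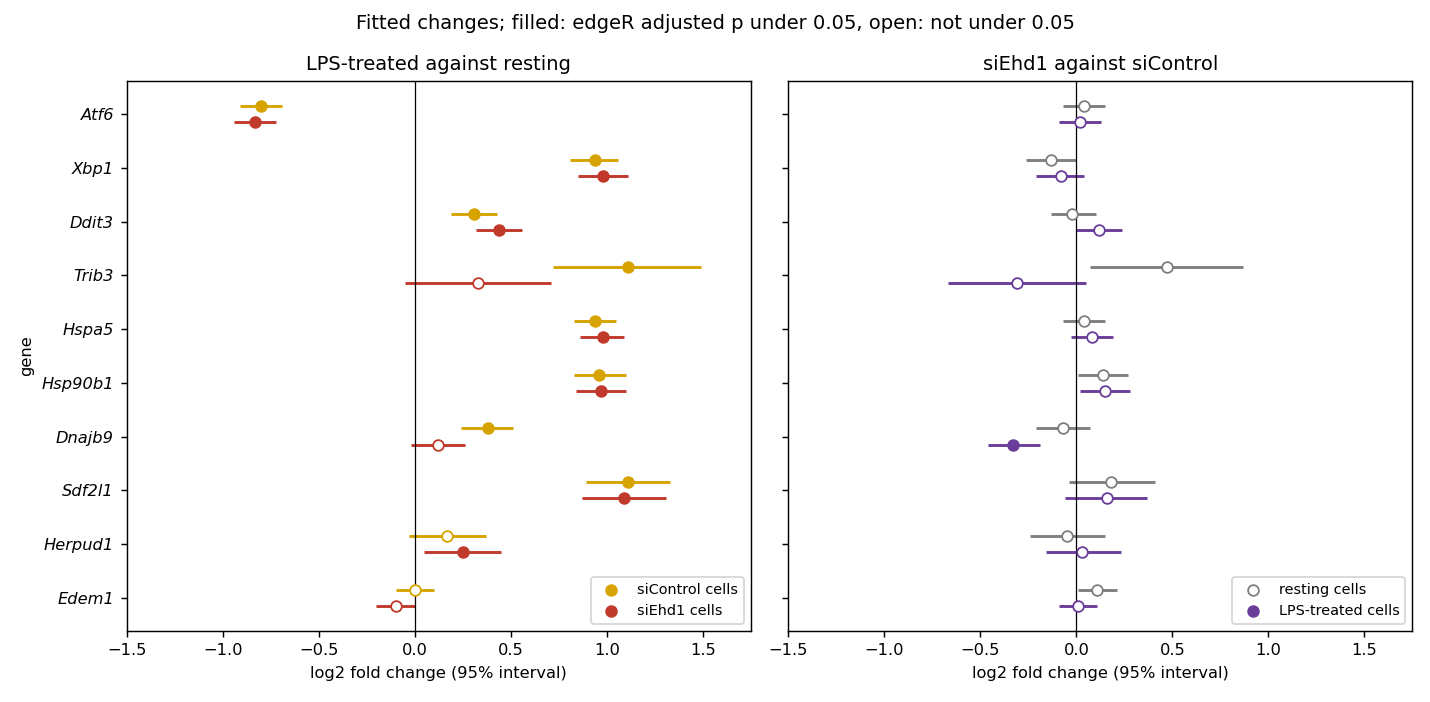
Fitted log2 fold change (x axis) with its 95% interval for each of the 10 genes (y axis), LPS-treated against resting on the left and siEhd1 against siControl on the right. Filled points passed an edgeR adjusted p of 0.05 and open points did not. LPS intervals lie far from 0 for Atf6, Xbp1, Hspa5, Hsp90b1 and Sdf2l1 with either siRNA, and Dnajb9 in LPS-treated cells is the only filled point on the right.

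In resting cells siEhd1 gave no called change in any of the 10 genes (0 of 10 by edgeR), where 28.2% of tested genes were called, 14.0% higher and 14.2% lower. At an unadjusted p under 0.05 edgeR had 3 of them higher and 1 lower, DESeq2 called 1 and limma-voom 0. The siControl and siEhd1 libraries did not overlap for 5 of the 10, against 44.1% of tested genes. Edem1, Hsp90b1, Sdf2l1 and Trib3 were above control in all siEhd1 libraries (21.4% of tested genes) and Xbp1 below (22.7%). Edem1 is the one DESeq2 called (0.11, DESeq2 adjusted p = 0.049), with siControl libraries at 327.8, 320.6 and 334.2 and siEhd1 libraries at 345.3, 364.7 and 352.4 CPM. Xbp1 read 98.6, 104.8 and 105.8 CPM with siControl and 90.5, 94.4 and 97.6 with siEhd1 (-0.13, SE 0.062, edgeR adjusted p = 0.13). Trib3 read 2.07, 3.55 and 3.34 CPM with siControl and 4.7, 4.14 and 3.58 with siEhd1 (0.47, 95% interval 0.07 to 0.87, edgeR adjusted p = 0.075). For Hspa5 the interval of the difference was -0.07 to 0.15, for Atf6 -0.07 to 0.15 and for Ddit3 -0.13 to 0.1 on the log2 scale, and the libraries of each overlapped. Those bounds do not show equal levels, and all of them are smaller in size than the LPS effect on the same gene with TMM factors. With total counts the LPS effect on Ddit3 in siControl cells was 0.11.

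In LPS-treated cells siEhd1 lowered 1 of the 10 genes, the BiP cochaperone gene Dnajb9, where 8.54% of tested genes were called, 4.44% higher and 4.1% lower. Dnajb9 read 39.0, 35.3 and 40.2 CPM with siControl and 29.6, 29.5 and 32.4 with siEhd1. No siEhd1 library reached the lowest siControl library, and the siEhd1 values were close to the resting siControl values of 30.2, 29.0 and 29.0 CPM. The level was 79.7% of control (log2 fold change -0.33, SE 0.065, 95% interval -0.46 to -0.19, edgeR adjusted p = 0.0026). This call held in 20 of 20 alternatives, with adjusted p between 0.00085 and 0.022. An exon of the microRNA gene Mir5627 overlaps 14 bases of Dnajb9 exons on the other strand.

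The other 9 genes did not pass the test after LPS. Ddit3 was above control in all siEhd1 libraries (47.7, 47.3 and 46.8 against 51.3, 50.1 and 52.6 CPM) but its adjusted p was 0.23 in edgeR (log2 fold change 0.12). Non-overlap held for 2 of the 10 genes, Ddit3 and Dnajb9, against 25.2% of tested genes (12.6% above and 12.6% below control). Hspa5 (0.08, 95% interval -0.03 to 0.19), Xbp1 (-0.08, -0.21 to 0.04), Atf6 (0.02, -0.09 to 0.13) and Edem1 (0.01, -0.09 to 0.11) had intervals on both sides of 0. Hsp90b1 was at 0.15 (0.02 to 0.28, edgeR adjusted p = 0.17) and Sdf2l1 at 0.16 (-0.06 to 0.37, edgeR adjusted p = 0.40).

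One library weighed on the last of these values. LPS siControl replicate 1 had the highest Hspa5, Hsp90b1, Xbp1, Sdf2l1 and Herpud1 of its group, with Hsp90b1 at 1189.2 against 1055.0 and 1005.6 CPM and Sdf2l1 at 132.8 against 107.5 and 94.4 CPM. Without it Hsp90b1 (0.22, edgeR adjusted p = 0.026) and Sdf2l1 (0.3, edgeR adjusted p = 0.007) were called higher with siEhd1 as well, which made 3 of the 10 genes called. Over all genes 493 of 12313 were then called higher and 477 lower. The labels single out no library. Within LPS siControl the chi-square per degree of freedom was 10.421 between replicates 1 and 2, 11.447 between 2 and 3 and 24.837 between 1 and 3. Replicate 1 was thus not alone in standing apart, and the cause was not tested.

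The siEhd1 effect was compared between LPS-treated and resting cells by the difference of the log2 fold changes, in which 6.04% of tested genes were called (3.12% higher and 2.93% lower). With total counts those calls went from 379 higher and 356 lower to 315 and 446. None of the 10 genes was called (0 by edgeR, DESeq2 and limma-voom, with 0 higher and 2 lower at an unadjusted edgeR p under 0.05). The 2 were Trib3 (-0.78, SE 0.26, 95% interval -1.32 to -0.24, edgeR adjusted p = 0.086) and Dnajb9 (-0.26, SE 0.092, -0.45 to -0.06, edgeR adjusted p = 0.12). Trib3 passed without LPS siControl replicate 1 (-0.91, edgeR adjusted p = 0.032), and it was above control in resting and below the control mean in LPS-treated siEhd1 cells. Neither gene was thus shown to respond differently to siEhd1 in the 2 states, nor differently to LPS with the 2 siRNAs, since the same contrast tests both.

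The other genes of the response were taken from 5 lists that hold none of the 10: sensors and factors, chaperones and folding enzymes, ER-associated degradation, translocation into the ER, and outputs of ATF4 and CHOP. All 81 listed genes were found in the tables and 79 were tested. With LPS in siControl cells 59 of the 79 rose and 10 fell, where 34.8% of all tested genes were called higher and 34.0% lower. These shares are the background of each list count with TMM factors in this comparison. The median log2 fold change was 0.61 against -0.01 over all tested genes. Scaled to total counts, the same genes gave 51 rises and 16 falls, where 2826 of all 12164 tested genes were called higher and 5860 lower. Those calls are the background of each list count with total counts in this comparison.

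Among the chaperones and folding enzymes 18 of 21 rose and 0 fell with LPS in siControl cells (total counts: 18 and 3), with a median of 0.93. Ero1l, the oxidase that feeds disulfide formation, rose from 39.4 to 182.4 CPM (2.21, edgeR adjusted p = 8.5e-18). The disulfide isomerases Pdia4 (70.9 to 225.1 CPM, 1.67), P4hb (364.9 to 996.9 CPM, 1.45) and Pdia3 (383.2 to 795.4 CPM, 1.05) followed. Of the translocation genes 15 of 17 rose and 1 fell (total counts: 12 and 1), with a median of 0.55. Serp1, which protects newly made membrane proteins at the translocon, rose from 186.6 to 543.8 CPM (1.54, edgeR adjusted p = 1.3e-15). Of the degradation genes 13 of 18 rose and 2 fell, with a median of 0.38 (9 and 4 with total counts), and the ligase Syvn1 (72.8 to 116.0 CPM, 0.67) and the ATPase Vcp (413.6 to 654.0 CPM, 0.66) were among those that rose.

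Of 11 sensors and factors 5 rose and 4 fell with LPS in siControl cells (total counts: 4 and 5). The median was 0.18 (-0.02 with total counts). These shares lay near the 34.8% higher and 34.0% lower of all tested genes, so the counts are no result about this list. Atf4, the factor translated when PERK is active, rose from 72.0 to 154.5 CPM (1.1, edgeR adjusted p = 2.2e-12), and Ppp1r15b, a subunit of the eIF2α phosphatase, from 116.0 to 227.7 CPM (0.97). Ern1, which encodes IRE1α, fell from 75.5 to 57.6 CPM (-0.39, edgeR adjusted p = 5.5e-06). Of 12 outputs of ATF4 and CHOP 8 rose and 3 fell (the same counts with total counts), with a median of 0.94 and with large changes both ways. Nupr1, a stress-induced chromatin protein, rose from 5.02 to 60.3 CPM (3.58) and Cebpb, a partner of CHOP, from 84.0 to 477.5 CPM (2.51). The proapoptotic genes Bcl2l11 (-1.16, 178.5 to 79.8 CPM) and Bbc3 (-1.82, 27.1 to 7.65 CPM) fell while Ddit3 rose.

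In siEhd1 cells LPS raised 56 and lowered 9 of the 79 genes, where 32.9% of all tested genes were called higher and 34.0% lower. With total counts it raised 43 and lowered 19, where 2499 of all 12164 tested genes were called higher and 6244 lower. By list, rises then falls, the counts were 18 and 0 of 21 chaperones (18 and 2 with total counts), 15 and 0 of 17 translocation genes (10 and 2) and 12 and 2 of 18 degradation genes (8 and 4). They were 5 and 4 of 11 sensors and factors (2 and 6) and 6 and 3 of 12 outputs (5 and 5).

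**Figure D4:**
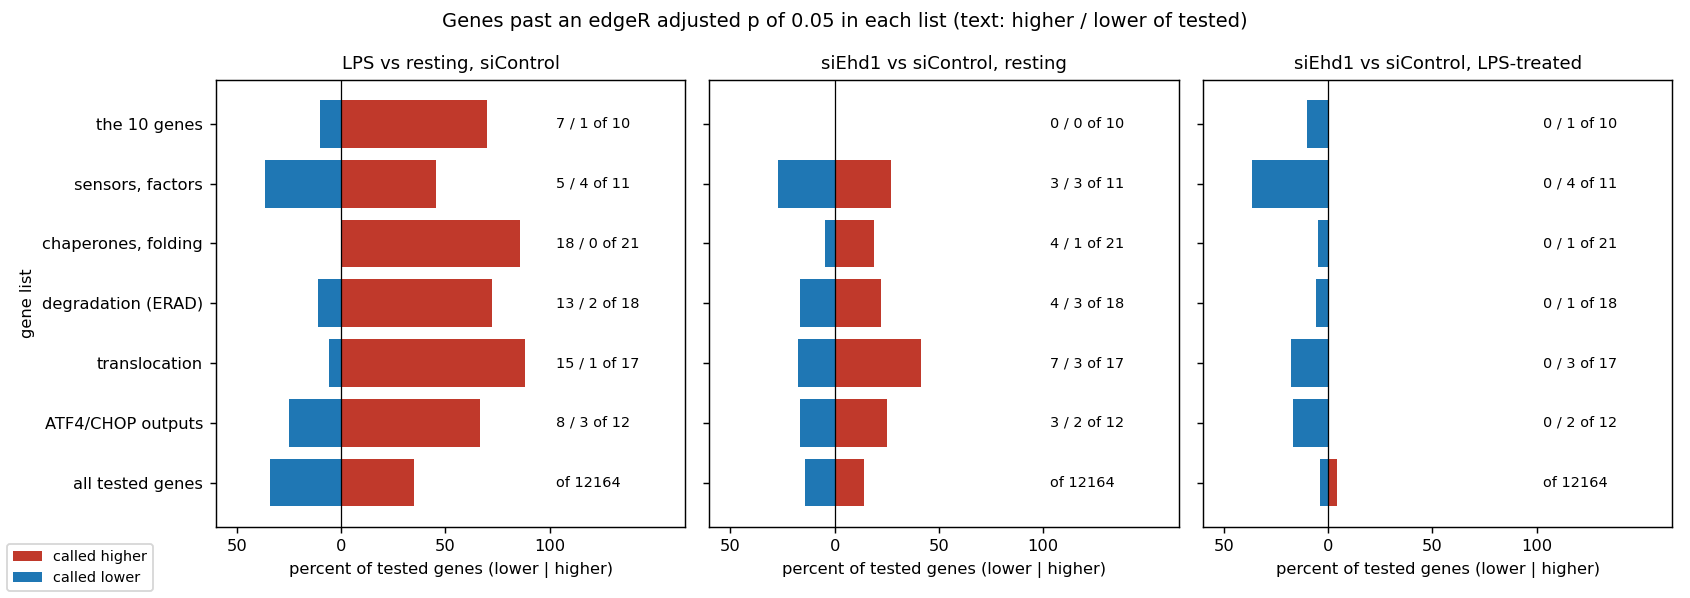
Percent of tested genes called higher (red, to the right) or lower (blue, to the left) at an edgeR adjusted p of 0.05, by gene list (y axis), in 3 comparisons. The text in each panel gives the counts higher and lower of those tested. With LPS 18 of 21 chaperone genes were higher and 0 lower; with siEhd1 after LPS 11 pathway genes were lower and 0 higher in all 5 lists together.

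With siEhd1 in resting cells 21 of the 79 genes were higher and 12 lower. That was 41.8% called in either direction, against 28.2% of all tested genes, of which 14.0% were higher and 14.2% lower. The count of rises went down when 1 library was left out: without resting siControl replicate 1 there were 12 higher and 11 lower of 80 tested. Calls over all genes also went down without it, from 1704 higher and 1728 lower of 12164 to 1201 and 1148 of 12277. By list, higher then lower, the counts were 3 and 3 of 11 sensors and factors, 4 and 1 of 21 chaperones (1 and 1 without that library), 4 and 3 of 18 degradation genes (1 and 3), 7 and 3 of 17 translocation genes (5 and 3) and 3 and 2 of 12 outputs (2 and 2, of 13 then tested). Atf4 read 64.4, 76.6 and 75.0 CPM with siControl and 93.4, 92.4 and 89.5 with siEhd1, without overlap (0.35, edgeR adjusted p = 0.00031). Asns, the asparagine synthetase gene that ATF4 induces, read 5.41, 7.15 and 10.4 with siControl and 17.0, 18.0 and 13.7 with siEhd1 (1.09, edgeR adjusted p = 0.00052). Eif2s1, which encodes eIF2α, rose by 0.36 (edgeR adjusted p = 4.9e-05), while Ddit3, a target in the same branch, had a log2 fold change of -0.02. Ern1 fell from 79.3, 75.8 and 71.3 to 56.0, 53.3 and 53.5 CPM (-0.48, edgeR adjusted p = 4e-06).

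After LPS siEhd1 lowered 11 of the 79 genes and raised 0 by edgeR, where 4.1% of all tested genes were called lower and 4.44% higher. There were 5 higher and 18 lower at an unadjusted p under 0.05, 1 higher and 9 lower by DESeq2 and 0 and 11 by limma-voom. Without LPS siControl replicate 1 the counts were 6 higher and 10 lower, all 6 of the rises among the chaperones and folding enzymes. Over all genes 493 of 12313 were then called higher and 477 lower, against 540 and 499 of 12164 with all libraries. By list there were 4 falls of 11 sensors and factors, 1 of 21 chaperones, 1 of 18 degradation genes, 3 of 17 translocation genes and 2 of 12 outputs. Ern1 fell again, from 56.3, 59.4 and 57.0 to 44.2, 39.9 and 45.7 CPM (-0.41, edgeR adjusted p = 0.00018). Xbp1, whose mRNA is the substrate of the Ern1 product, showed a log2 fold change of -0.08 in the same cells. Creb3l2, an ER-bound factor of the ATF6 type (-0.45), Srpr, the receptor of the signal recognition particle (-0.39), Ero1lb (-0.26), Serp1 (-0.25) and Sesn2, a stress-induced regulator of metabolism (-0.36), were called lower as well, each with an edgeR adjusted p of at most 0.0048. The falls of Eif2ak3, which encodes PERK (-0.19), and Ppp1r15b (-0.17) were less secure, being lost in 13 and 15 of 20 alternatives, and that of Sec61a1, the translocon channel (-0.19), in 5.

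The siEhd1 effect differed between the states for 7 of the 79 genes, 6 of them lower and 1 higher in LPS-treated than in resting cells. That was 8.86% of them, near the 6.04% of all tested genes called (3.12% higher, 2.93% lower), so the total is no result about the pathway. Atf4 (-0.51, SE 0.088, edgeR adjusted p = 0.0013), Asns (-1.44, SE 0.24, edgeR adjusted p = 0.0036) and Cars, the cysteinyl-tRNA synthetase gene (-0.51, SE 0.095, edgeR adjusted p = 0.0026), were called in every alternative run. After LPS Atf4 read 165.3, 145.5 and 152.7 CPM with siControl and 136.6, 136.4 and 142.7 with siEhd1. Asns read 17.2, 17.7 and 16.4 against 12.1, 14.2 and 13.7. Both genes thus stood above control in all resting siEhd1 libraries and below it in all LPS siEhd1 libraries, though neither passed the test after LPS (edgeR adjusted p = 0.13 and 0.24). Trib3, at 0.47 and -0.31, had estimates of the same signs, and Ddit3 did not. Of the other outputs of ATF4 and CHOP, Chac1, Slc7a11 and Tnfrsf10b also had those signs. Atf3, Sesn2, Ddit4, Nupr1, Bbc3, Bcl2l11 and Cebpb did not. Ssr3, a subunit of the translocon-associated complex (-0.3), was called too, while Eif2s1 (-0.3), Chac1 (-2.05) and Bcl2l11 (0.29) lost their call in 6 of 19, 8 of 18 and 12 of 19 alternatives. Chac1 lay near the floor, at 0.293 and 1.02 CPM in resting and 0.698 and 0.589 CPM in LPS-treated cells (siControl then siEhd1).

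**Figure D5:**
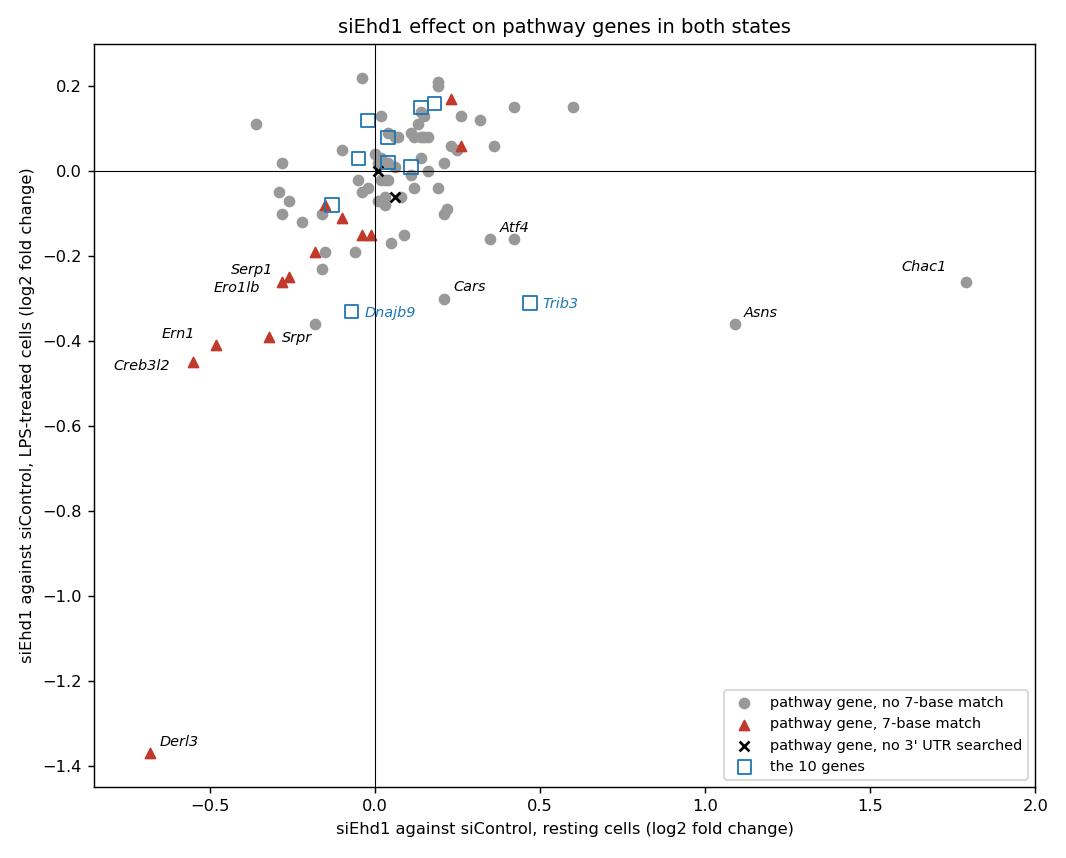
Log2 fold change of siEhd1 against siControl in resting cells (x axis) and in LPS-treated cells (y axis) for 79 other pathway genes and for the 10 genes (squares). Triangles carry the 7-base sequence named in the text in an annotated 3′ UTR. Ern1, Creb3l2, Srpr, Ero1lb and Serp1 lie at negative values on both axes, and Asns, Atf4, Cars and Trib3 at positive values on the x axis and negative values on the y axis.

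Earlier work on these same libraries found the sequence GCCTTGT frequent in 3′ UTRs of genes lower with siEhd1, so the following counts are a description and no independent evidence. Among the 10 genes Atf6 and Edem1 carried it in an annotated 3′ UTR, and Dnajb9 did not. Of all tested genes with a searched 3′ UTR 14.7% carried it (1652 of 11242). Atf6 and Edem1 were not called lower with siEhd1 in either state. Of the 7 other pathway genes lower in both states (Creb3l2, Eif2ak3, Ern1, Ero1lb, Sec61a1, Serp1 and Srpr), 6 carried it, all but Eif2ak3. Of the 5 lower in resting cells and not called lower after LPS (Bbc3, Bcl2l11, Edem2, Erlec1 and Os9) 0 carried it, and of the 4 lower after LPS and not called lower in resting cells (Cars, Derl3, Ppp1r15b and Sesn2) 1 did, Derl3. It was carried by 2 of the 21 higher in resting cells and by 4 of the 41 searched that were called in neither state. The share of carriers among all tested genes lower in both states is not given here, so these counts do not set the pathway apart. The part of this sequence in the changes of the pathway genes was not tested.

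Of tested genes with a matched promoter, 15 held the ERSE letters, Hspa5 and Hsp90b1 among them. With LPS in siControl cells 9 of the 15 rose, 2 fell and 4 were not called, where 34.8% of all tested genes were called higher and 34.0% lower. The median log2 fold change of the 15 was 0.48, and 0.29 with total counts. Pdia6, a disulfide isomerase, rose from 136.6 to 366.0 CPM (1.42) and Creld2, an ER stress-induced folding factor, from 26.8 to 65.9 CPM (1.3), while Adcy3, an adenylyl cyclase gene, fell from 24.5 to 6.2 CPM (-1.98). With siEhd1 after LPS 1 of the 15 was higher and 1 lower (Adcy3, 0.54, and Derl3, -1.37, the latter at 1.03 and 0.4 CPM), where 4.44% of all tested genes were called higher and 4.1% lower. The call of Derl3 was lost without LPS siEhd1 replicate 2 (edgeR adjusted p = 0.062). Without LPS siControl replicate 1 the counts were 5 higher and 1 lower, where 493 of all 12313 genes then tested were called higher and 477 lower. The set was formed from letters in the promoter and shares genes with the chaperone and degradation lists.

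Across the 12 libraries the genes whose log2 level was most alike to that of Hspa5 were Pdia6 (Pearson r = 0.998), Larp1 (0.998), Pdia4 (0.997), Gpr84 (0.997) and Dhrs1 (0.997). For Ddit3 they were Lox (0.982), Olr1 (0.977), Lrpap1 (0.977), Aldh1b1 (0.977) and Slc7a6 (0.976). With LPS in siControl cells Lox went from 0.381 to 7.23 CPM and Olr1 from 0.22 to 2.24 CPM. Ddit3 went from 38.2 to 47.3 CPM, so a high r does not mean a change of like size. Within the 10 genes r with Hspa5 was 0.994 for Hsp90b1, 0.983 for Sdf2l1, 0.977 for Xbp1, 0.964 for Ddit3, 0.756 for Trib3, 0.687 for Herpud1, 0.641 for Dnajb9, -0.392 for Edem1 and -0.988 for Atf6. By rank of r among tested genes Hsp90b1 was at 43, Sdf2l1 at 498, Xbp1 at 699 and Ddit3 at 1150. Trib3 was at 3598, Herpud1 at 3943, Dnajb9 at 4134, Edem1 at 7018 and Atf6 at 11987. Many genes outside the 10 thus matched Hspa5 more closely than most of the 10 did. These values describe 12 libraries that are resting or LPS-treated and share their scaling.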

How the data were processed

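Raw counts of reads by gene were deposited by the authors as 2 tables, 1 per state. Per the submitters' processing notes, mm10 was the build and STAR 2.7.6a, featureCounts 2.20.0, Trim Galore 0.6.3 (with cutadapt) and FastQC 0.10.1 were among the tools. Not given in the sources used here are the annotation, strand setting, handling of reads shared between genes, LPS dose and time, and siRNA sequences. Library totals were 18572725 to 22545272 counts, chi-square per degree of freedom between replicates was 3.102 to 24.837, above sampling noise, and 0 pairs were identical.

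All 12 libraries were fitted together with edgeR 4.0.16 (R 4.3.3): filterByExpr with minimum count 10 and minimum total 15 kept 12164 of the 17270 genes with at least 1 count, followed by TMM factors, 1 mean per group, a robust quasi-likelihood fit with 8 residual degrees of freedom, and Benjamini-Hochberg adjustment over all tested genes at 0.05. The SE was taken from each fold change and its F value (size of the log2 change over the root of F), and intervals are 95% intervals from the t distribution with the moderated degrees of freedom. Levels are CPM with TMM factors, as mean ± SD of 3 libraries. The script was tested on simulated data. Alternatives were DESeq2 size factors, total counts, no filter, only the groups compared, the replicate number as a block, DESeq2 1.42.0, limma-voom (limma 3.58.1) and leaving out each library.

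Gene positions, exon lengths and 3′ UTRs are from GENCODE M21 on GRCm38, the same build as mm10, and promoters from RefSeq on GRCm38.p6. Exons of the 2 gene models named Ddit3 were joined. Beside the 10 genes and Ehd1, named genes were up to 4 called genes of smallest p per pathway list, promoter set and comparison, and the 5 genes most alike Hspa5 and Ddit3 by Pearson r of log2 CPM (prior count 2). Genes given to show where a call of a list stands or which genes a count of 7 or fewer holds were named after their values were seen. The 10 genes, the lists and the 7-base sequence were chosen with earlier results of these data known. A list of ER residents by protein ending is not analysed here.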

Additional observations from a re-analysis of the deposited data

How the results depend on the processing

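Of 970 values of the 10 genes under 20 alternatives, 951 kept their direction and their side of the threshold, 5 lost the call, 13 gained one and 1 reversed. The reversed value was Edem1 with LPS in siControl cells, at -0.19 with total counts. The number of the 10 genes called with siEhd1 in resting cells went from 0 to 2 with total counts (Hsp90b1 and Edem1), to 2 with only the groups compared (Hsp90b1 and Sdf2l1), to 1 with DESeq2 and to between 0 and 2 when 1 library was left out. Leaving out 1 library gave 1 to 3 genes called with siEhd1 after LPS and 0 to 1 for the difference of the siEhd1 effects. The counts of 8 and 7 genes called with LPS stayed within 1.5 times under each alternative, but the genes called changed with total counts. In siControl cells Ddit3 then lost its call, in siEhd1 cells Herpud1 did, and Edem1 was called lower in both. With the replicate number as a replicate block, 0 genes were called with siEhd1 in resting cells, 1 after LPS, 0 for the difference, and 8 and 7 with LPS. Same-numbered libraries did not deviate together (correlations -0.063, -0.141 and -0.167 in resting and -0.045, 0.185 and 0.086 in LPS-treated cells), so the numbers were not taken to pair the samples. A block within each table moved the calls over all genes to 1463 higher and 1391 lower in resting cells and 390 and 360 after LPS. Over all genes, siEhd1 after LPS gave 540 higher and 499 lower, against 304 and 303 without LPS siEhd1 replicate 1. The difference gave 379 and 356, against 264 and 209 without resting siControl replicate 1 and 243 and 210 without resting siEhd1 replicate 1; the cause was not tested. Trib3, at under 8 CPM in every library, had the widest errors of the 10 genes.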
